A study of Mus musculus with 16 samples.

Results

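Goblet cell genes were followed through the colonic epithelium of mice that differed in their supply of secretory IgA (SIgA) and in exposure to dextran sulfate sodium (DSS). The 9 genes were chosen by symbol, from their known roles, with earlier results of these data known. They were the mucus proteins Muc2, Zg16 and Tff3, the secretory pathway protein Agr2, the goblet cell marker Bcas1, and the transcription factors Atoh1, Spdef, Foxa3 and Creb3l1. Each had exactly 1 probe set that named it alone, so that 9 of 9 were measured, out of 19938 genes in all. No filter on low signals was applied to them.

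Expression was measured on 16 whole-transcript arrays of isolated colonic epithelial cells from C57BL/6 mice that were 70 days old and matched for gender. The study asked how SIgA from the mother's milk and SIgA carried by the offspring's own receptor bear on gene expression in the colon. Pigr is the receptor that moves polymeric IgA across the epithelium. Offspring of Pigr-/- dams took no passive SIgA from milk, and Pigr-/- offspring transported no active SIgA of their own. All mice therefore carried at least 1 inactive Pigr allele, and no Pigr+/+ animal entered the comparisons. After 8 days of 2% DSS in the drinking water, which wounds the lining of the colon, or after no treatment, mice fell into these groups: DSS and untreated Pigr-/- offspring of Pigr-/- dams (neither SIgA source), DSS and untreated Pigr+/- offspring of Pigr-/- dams (active SIgA only), DSS and untreated Pigr-/- offspring of Pigr+/- dams (passive SIgA only), and DSS and untreated Pigr+/- offspring of Pigr+/- dams (both sources). Each of the 8 groups had 2 arrays, and each array carried RNA pooled from 3 mice. The p-values therefore measure the spread between pools, not between single mice, and the passive comparison also holds whatever else differed between dams.

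Goblet cells are the mucus-secreting cells of the intestinal epithelium. In the crypt, cells that escape Notch signalling switch on Atoh1, the basic helix-loop-helix factor of the secretory lineage, and Spdef acts downstream of it in goblet cell maturation. Mature cells fold and store Muc2, the gel-forming mucin, with the help of the disulfide isomerase Agr2, and release it with the trefoil peptide Tff3 and the lectin-like protein Zg16, which binds Gram-positive bacteria. Foxa3 is a forkhead factor found in goblet cells, and Creb3l1 is an endoplasmic reticulum-bound transcription factor of secretory cells.

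The starting points of these genes are shown because Atoh1, which binds E-boxes, was among the genes called after DSS. RefSeq's promoter table for GRCm38.p6 held 5 of the 9 genes, namely Muc2, Agr2, Atoh1, Spdef and Foxa3. The 250 bases before the start of Muc2 (chr7:141690090-141690339, plus strand), Agr2 (chr12:35992675-35992924, plus strand) and Atoh1 (chr6:64728875-64729124, plus strand) read as follows, 5' to 3', with each E-box CANNTG in capitals.
Muc2: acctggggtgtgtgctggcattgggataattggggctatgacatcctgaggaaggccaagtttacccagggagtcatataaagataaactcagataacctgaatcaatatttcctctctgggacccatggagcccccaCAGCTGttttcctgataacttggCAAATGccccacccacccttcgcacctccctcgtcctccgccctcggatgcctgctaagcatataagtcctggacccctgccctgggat
Agr2: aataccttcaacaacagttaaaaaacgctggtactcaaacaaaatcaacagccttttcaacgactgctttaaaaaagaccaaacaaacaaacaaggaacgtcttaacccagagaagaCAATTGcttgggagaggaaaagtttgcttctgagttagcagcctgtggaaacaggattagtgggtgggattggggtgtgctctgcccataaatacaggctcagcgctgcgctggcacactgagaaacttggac
Atoh1: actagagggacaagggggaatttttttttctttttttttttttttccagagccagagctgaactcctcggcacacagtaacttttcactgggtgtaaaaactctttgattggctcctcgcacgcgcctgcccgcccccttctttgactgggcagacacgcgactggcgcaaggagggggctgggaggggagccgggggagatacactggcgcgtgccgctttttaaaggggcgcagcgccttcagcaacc
The Muc2 stretch held 2 matches, of which 1 was CAGCTG, a special case of CANNTG. Agr2 and Foxa3 held 1 match each, and Spdef and Atoh1 held 0 in these windows. The Spdef window (chr17:27728952-27729201, minus strand) lies inside the gene span given further on, so it is not the stretch before that span. Both motifs read the same on either strand. Of 32851 mouse promoters of the same length, 66.2% held a CANNTG and 13.0% a CAGCTG, so that a match is common. The forkhead motif TGTTTAC, searched on both strands, was in 0 of the 5 windows and in 3.2% of all promoters. These matches describe the letters of the windows and no binding.

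Pigr itself was lower in Pigr-/- offspring, without overlap: it read 11.34 to 11.70 in the 8 arrays of Pigr-/- offspring, against 12.18 to 12.46 in the 8 of Pigr+/- offspring (log2 intensity; -0.85 ± 0.05, adjusted p = 9.77e-06 by limma). Array values are log2 intensities throughout, a difference of 1 being a doubling, and errors on differences are standard errors. Both arrays of the untreated group with both SIgA sources stood apart from the rest. Over 1288 genes of chemosensory receptors and keratin-associated proteins, which are best known from sensory tissue and skin, their means were 5.25 and 5.41, against 4.45 to 4.87 in the other 14 arrays. On the first principal component (34.1% of the variance) they lay at -33.5 and -35.2, with replicate 1 of the untreated active-only group at -32.2 and the other 13 arrays between -5.52 and 27.4. Results that rest on these arrays are given with and without them.

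**Figure D1:**
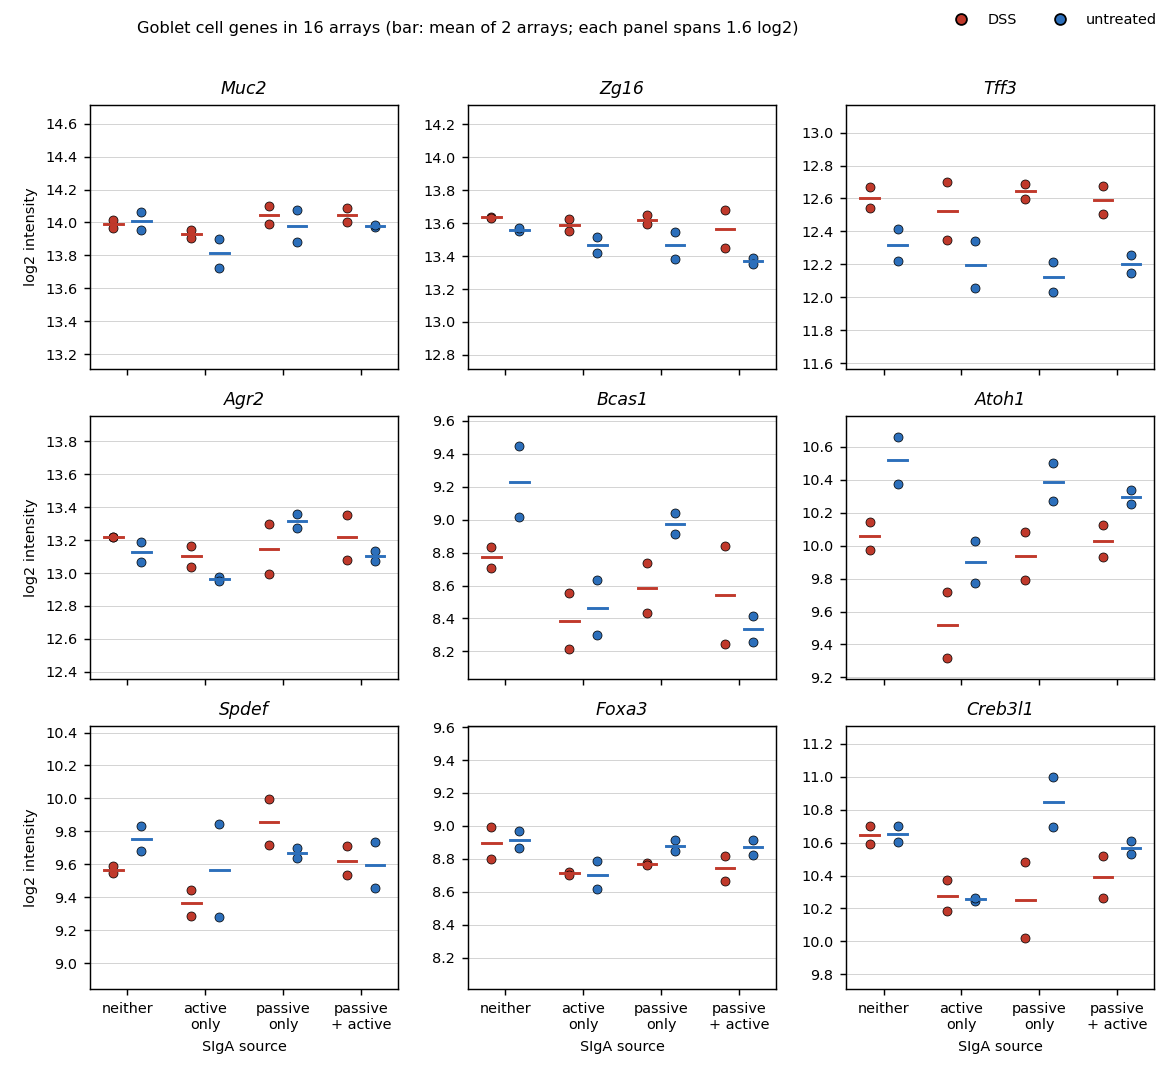
Log2 intensity of each of the 9 goblet cell genes (y axis, each panel spanning 1.6 log2 units) in every array, by SIgA source (x axis), with DSS arrays in red left of untreated arrays in blue. Points are arrays of RNA pooled from 3 mice and bars are the means of 2 arrays. In each SIgA group the red Tff3 points lie above the blue ones and the red Atoh1 points below them, while Bcas1 is highest in untreated mice without active SIgA.

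After DSS the trefoil peptide Tff3 rose and the lineage factor Atoh1 fell, while the other 7 goblet cell genes did not pass the test. Averaged over the 4 SIgA groups, 1 of 9 was called higher (Tff3) and 1 of 9 lower (Atoh1) at an adjusted p under 0.05 by limma, that is 22.2% of the 9, against 13.1% of all 19938 genes (6.4% higher and 6.73% lower). Differences (DSS minus untreated) ran from -0.39 to 0.38, 4 above 0 and 5 below, with a median of -0.04 over the 9 genes and of -0.004 over all genes. At an unadjusted p under 0.05 there were 4 of 9, against 26.5% of all genes. In these bulk samples, a change in the number of goblet cells and a change in the RNA of each cell cannot be told apart.

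Tff3 (chr17:31125306-31129611 in GRCm38.p6), which acts in epithelial repair and mucus stability, read 12.54 and 12.67 after DSS in mice with neither SIgA source, against 12.41 and 12.22 in untreated ones. In active-only mice it read 12.70 and 12.35 after DSS, against 12.34 and 12.06 untreated. In passive-only mice it read 12.69 and 12.60 after DSS, against 12.03 and 12.21 untreated. With both sources the values were 12.67 and 12.50 after DSS, against 12.26 and 12.15 untreated. Both DSS arrays were thus above both untreated arrays in 4 of 4 SIgA groups, and 7 of the 8 DSS arrays were above every untreated array. The averaged difference was 0.38 ± 0.07, a factor of 1.30 (adjusted p = 0.00366). It was 0.38 ± 0.09 without the untreated group with both sources (adjusted p = 0.022, with 6.07% of all genes called) and 0.43 ± 0.09 when replicate 1 of the untreated active-only group was left out as well (adjusted p = 0.0136, with 5.55% called). The 4 DSS groups had the highest group means (12.53 to 12.64) and the 4 untreated groups the lowest (12.12 to 12.31), although each neighbour in that order overlapped the next.

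Atoh1 (chr6:64729125-64731245), needed for the secretory lineage to form, read 10.15 and 9.97 after DSS in mice with neither source, against 10.38 and 10.66 in untreated ones. Active-only mice had 9.72 and 9.32 after DSS, against 10.03 and 9.77 untreated. Passive-only mice had 9.79 and 10.08 after DSS, against 10.50 and 10.27 untreated. With both sources it was 10.13 and 9.93 after DSS, against 10.34 and 10.26 untreated. Both DSS arrays lay below both untreated arrays in 4 of 4 SIgA groups, but over all arrays the DSS range (9.32 to 10.15) overlapped the untreated range (9.77 to 10.66), since the active-only group was low in both conditions. The averaged difference was -0.39 ± 0.08, a factor of 0.764 (adjusted p = 0.00764). Without the untreated group with both sources it was -0.43 ± 0.10 (adjusted p = 0.024), and with replicate 1 of the untreated active-only group also left out it was -0.39 ± 0.10 and no longer passed the test (adjusted p = 0.0545), so that 1 of 9 was then called.

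Muc2 (chr7:141690340-141754691), the mucin that forms the colonic gel, did not pass the test. It read 13.91 to 14.10 in the 8 DSS arrays (median 13.996), against 13.72 to 14.07 in the 8 untreated arrays (median 13.96). The ranges overlapped. The averaged difference was 0.06 ± 0.05, with a 95% interval of -0.06 to 0.18 (adjusted p = 0.56). Zg16 (chr7:127050156-127052675) ran from 13.45 to 13.68 after DSS (median 13.63), against 13.35 to 13.57 in untreated arrays (median 13.47). Its DSS arrays were above the untreated ones in 4 of 4 SIgA groups, as for Tff3, yet the averaged difference of 0.14 ± 0.05 missed the threshold (adjusted p = 0.123). Without the untreated group with both sources the Zg16 difference was 0.12 ± 0.07 (adjusted p = 0.431). Over all genes, 3.17% had DSS arrays apart upwards in each of the 4 groups and 2.76% apart downwards. None of the 9 separated all 8 DSS arrays from all 8 untreated arrays, which 2.89% of all genes did.

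Agr2 (chr12:35992925-36004081), which is needed for Muc2 to be made, gave 12.996 to 13.35 after DSS (median 13.19), against 12.95 to 13.36 untreated (median 13.10). Its difference was 0.04 ± 0.06, with an interval of -0.09 to 0.18 (adjusted p = 0.751). Bcas1 (chr2:170343973-170427911) gave 8.22 to 8.84 after DSS (median 8.63), against 8.26 to 9.45 untreated (median 8.77), a difference of -0.18 ± 0.10 (adjusted p = 0.304). Without the untreated group with both sources the Bcas1 difference was -0.31 ± 0.12 (adjusted p = 0.198). The highest Bcas1 values were all in untreated mice without active SIgA, described further on.

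Among the other transcription factors, Creb3l1 (chr2:91982328-92024170) gave 10.02 to 10.70 after DSS (median 10.43), against 10.25 to 10.997 untreated (median 10.61), with a difference of -0.19 ± 0.08 (adjusted p = 0.141). That value passed the test only when replicate 2 of the passive-only DSS group was left out (-0.25 ± 0.07, adjusted p = 0.0463), among the 16 arrays left out in turn. Spdef (chr17:27714446-27731003) had 9.29 to 9.998 after DSS (median 9.57), against 9.28 to 9.84 untreated (median 9.69), a difference of -0.04 ± 0.09 with an interval of -0.23 to 0.14. Foxa3 (chr7:19013283-19023539) had 8.67 to 8.996 after DSS (median 8.77), against 8.62 to 8.97 untreated (median 8.86), a difference of -0.06 ± 0.06 with an interval of -0.18 to 0.06. For both, the DSS range overlapped the untreated range.

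**Figure D2:**
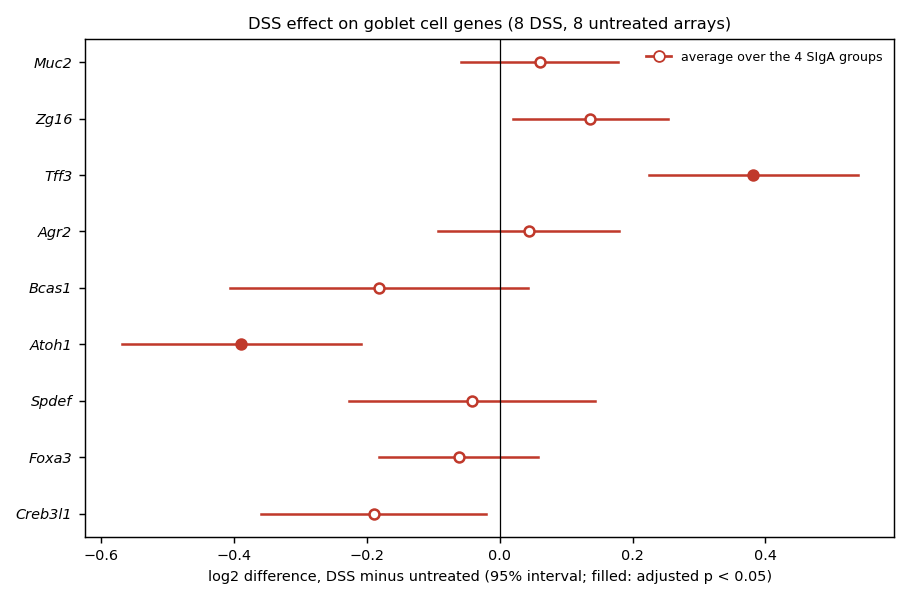
Log2 difference DSS minus untreated for the 9 goblet cell genes (x axis), averaged over the 4 SIgA groups (8 DSS and 8 untreated arrays), with 95% intervals as lines and filled points where the adjusted p was under 0.05. Tff3 at 0.38 and Atoh1 at -0.39 are filled and lie on opposite sides of 0.

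Taken by SIgA group, 0 of 9 goblet cell genes were called by limma in any of the 4 DSS comparisons. Of all genes, 1.12% were called in mice with neither source, 0.998% with active only, 1.98% with passive only and 10.1% with both. The last of these shares rests on the 2 untreated arrays that stood apart, and it could not be computed without them. At an unadjusted p under 0.05 there were 2, 2, 3 and 1 of the 9 in the same order of groups, against 9.14%, 12.8%, 11.4% and 24.3% of all genes. Tff3 differences were 0.29 ± 0.15 with neither source, 0.33 ± 0.15 with active only, 0.52 ± 0.15 with passive only and 0.39 ± 0.15 with both. Atoh1 differences were -0.46 ± 0.17, -0.38 ± 0.17, -0.45 ± 0.17 and -0.27 ± 0.17 in that order. The smallest adjusted p of the 9 was that of Creb3l1 in passive-only mice, at 10.02 and 10.48 after DSS, against 10.997 and 10.69 untreated (-0.59 ± 0.16, adjusted p = 0.0809). With a trended prior variance Creb3l1 (adjusted p = 0.0372) and Tff3 (adjusted p = 0.0452) were both called in passive-only mice, with array weights likewise (0.0412 and 0.046), and Creb3l1 also without replicate 2 of the passive-only DSS group (-0.83 ± 0.16, adjusted p = 0.0372). The interaction of DSS with passive SIgA was called for 0 of 9 genes (0.115% of all genes), Creb3l1 at 0.39 ± 0.16 having the smallest p (adjusted p = 0.532). The interaction of DSS with active SIgA was also called for 0 of 9 (0.843% of all genes), Bcas1 at -0.49 ± 0.21 having the smallest p (adjusted p = 0.377).

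Other genes, taken from 4 lists by function, went both ways after DSS, and several moved further than any of the 9. The lists cover mucus, mucins and secretory lineage and are not confined to goblet cells. Gfi1b is also on the tuft marker list, and Itln1 and Ang4 are on the Paneth one. Of all genes, 6.4% were called higher and 6.73% lower in this comparison. Of 13 measured mucus and granule products (15 listed), 2 rose and 2 fell (median -0.03). Retnlb, a resistin-like molecule secreted by goblet cells, had 11.17 to 11.91 after DSS, against 8.41 to 10.62 untreated, without overlap (2.16 ± 0.12, adjusted p = 1.46e-07). Reg4, a lectin of secretory cells, had 9.74 to 11.56 after DSS, against 11.69 to 12.19 untreated, also without overlap (-1.04 ± 0.21, adjusted p = 0.00527). Dmbt1, a scavenger receptor-like mucosal glycoprotein, rose by 0.29 ± 0.07 (adjusted p = 0.0153), and Clca1, a metalloprotease of the mucus, fell by 0.27 (adjusted p = 0.0287). Without the untreated group with both sources, Retnlb (1.96) and Reg4 (-1.05) were the ones still called, with Dmbt1 at an adjusted p of 0.0533 and Clca1 at 0.134.

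Of 38 measured genes of mucin folding, glycosylation and granule release (39 listed), 13 rose and 7 fell (median 0.08), or 8 and 6 without the untreated group with both sources. The transglutaminase Tgm2, which is not confined to goblet cells, had 8.63 to 9.22 after DSS, against 7.29 to 7.71 untreated (1.39 ± 0.06, adjusted p = 1.7e-08). Tgm3, a transglutaminase that crosslinks Muc2 in the colon, had 11.37 to 12.23 after DSS, against 12.70 to 12.998 untreated (-0.95 ± 0.07, adjusted p = 2.31e-06). The fucosyltransferase Fut2 rose by 0.76 ± 0.06, and the glycosyltransferase B4galnt3 changed by -0.50 ± 0.05. The DSS and untreated ranges of these 4 genes did not overlap.

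Of 6 measured membrane mucins (9 listed), 1 rose and 1 fell (median 0.06). Muc1, the widely expressed cell surface mucin, had 8.10 to 8.53 after DSS, against 7.31 to 7.97 untreated (0.56 ± 0.05, adjusted p = 2.25e-05). Muc4 had 9.87 to 10.34 after DSS, against 10.15 to 10.59 untreated (-0.22 ± 0.06, adjusted p = 0.037, and 0.0761 without the untreated group with both sources). Muc13 (0.16 ± 0.05, adjusted p = 0.0707) and Muc15 (-0.27 ± 0.09, adjusted p = 0.0545) did not pass.

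Of 25 secretory lineage and Notch factors, all measured, 0 rose and 3 fell (median -0.04), against 6.4% and 6.73% of all genes. The count was the same without the untreated group with both sources. The 3 were the Notch ligands Dll1, at 7.37 to 7.96 after DSS against 7.66 to 8.14 untreated (-0.31 ± 0.06, adjusted p = 0.00337), and Dll4, at 7.54 to 8.23 after DSS against 7.97 to 8.48 untreated (-0.28 ± 0.08, adjusted p = 0.0372), and Klf4, a zinc finger factor of goblet cell differentiation, at 11.35 to 11.64 after DSS against 11.44 to 11.86 untreated (-0.23 ± 0.06, adjusted p = 0.0156). The nuclear receptor Hnf4a was at -0.15 ± 0.05 (adjusted p = 0.0523).

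**Figure D3:**
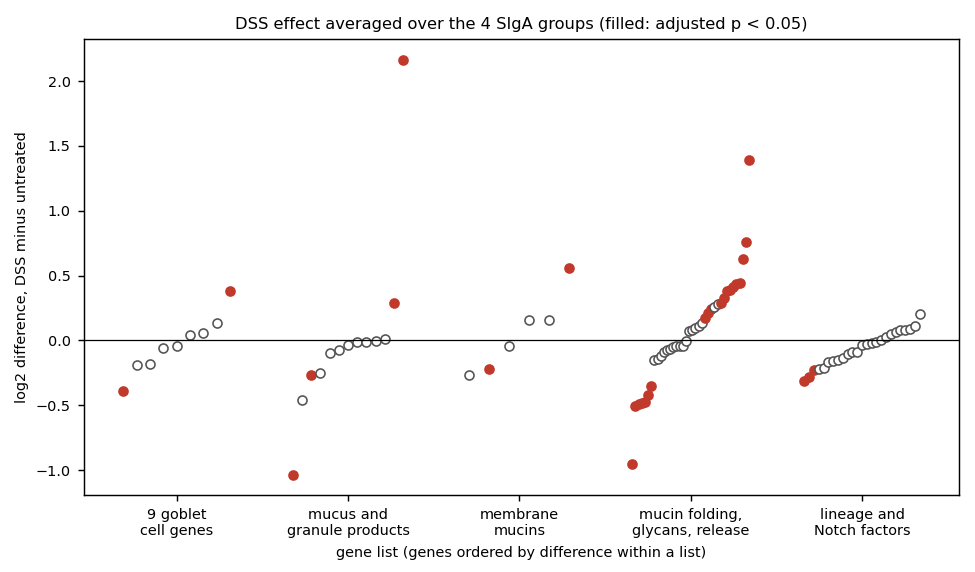
Log2 difference DSS minus untreated, averaged over the 4 SIgA groups (y axis), for the 9 goblet cell genes and for 4 lists of other genes (x axis, ordered by difference within a list). The lists go by function and are not confined to goblet cells. Each point is a gene, filled where its adjusted p was under 0.05. Called genes lie on both sides of 0 in all but the lineage and Notch list, where the 3 called genes, of 25, are below 0. Of all genes, 6.4% were called higher and 6.73% lower.

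Markers of other cells moved with DSS in the same arrays. Of all genes, 6.4% were called higher and 6.73% lower, or 6.07% in either direction without the untreated group with both sources. Mean levels per array of 10 absorptive colonocyte markers were 11.09 to 11.39 after DSS, against 11.49 to 11.86 untreated (8 of 10 fell, or 7 without the untreated group with both sources). Those of 8 crypt stem cell markers were 7.34 to 7.72 after DSS, against 7.82 to 8.18 untreated (6 of 8 fell, with or without that group). Those of 12 neutrophil markers were 6.62 to 7.34 after DSS, against 5.90 to 6.35 untreated (9 of 12 rose), and those of 12 macrophage and monocyte markers 6.46 to 6.798 after DSS, against 5.92 to 6.27 untreated (8 of 12 rose). Of 9 markers of all colonic epithelium, 2 fell (0 without that group), with means of 12.40 to 12.59 after DSS, against 12.46 to 12.58 untreated. The measured genes of the goblet marker list were the 9 genes and Clca1, so that this list repeats their values. In it 1 of 10 rose and 2 fell (1 and 1 without that group), with means of 11.05 to 11.36 after DSS, against 11.09 to 11.49 untreated. The absorptive, stem, neutrophil and macrophage means did not overlap between DSS and untreated arrays, whereas the means of the goblet list and of every other marker list did. Of the remaining lists, fibroblast markers rose in 3 of 8, tuft cell markers in 1 of 8 (0 without that group) and Paneth cell markers in 1 of 6. B and plasma cell markers fell in 2 of 8 (1 without that group) and enteroendocrine markers in 1 of 10 (0 without it), and T cell, smooth muscle and endothelial markers were called in 0 of 6 each. The part of these cell types in the Tff3 and Atoh1 results was not tested.

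Bcas1 was higher in untreated Pigr-/- than in untreated Pigr+/- offspring, and the other 8 goblet cell genes did not pass the test for loss of active SIgA (Pigr-/- minus Pigr+/- offspring). Bcas1, a gene named for its amplification in breast cancer and used here as a goblet cell marker, read 9.01 and 9.45 in untreated mice with neither source, against 8.30 and 8.63 in untreated active-only mice. In untreated passive-only mice it read 8.91 and 9.04, against 8.41 and 8.26 in untreated mice with both sources. The 4 untreated Pigr-/- arrays were thus above all 4 untreated Pigr+/- arrays, which 4.11% of all genes showed. The difference was 0.70 ± 0.15, a factor of 1.63 (adjusted p = 0.0129 by limma), and Bcas1 was the 1 of 9 genes called, against 7.49% of all genes called and 1.57% called higher.

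After DSS, Bcas1 read 8.84 and 8.71 in mice with neither source, against 8.55 and 8.22 in active-only mice, and 8.43 and 8.74 in passive-only mice, against 8.25 and 8.84 in mice with both sources. These ranges overlapped, and the difference was 0.22 ± 0.15 (adjusted p = 1). After DSS 0 of 9 genes and 0.00502% of all genes were called. Averaged over untreated and DSS mice, the Bcas1 difference was 0.46 ± 0.10 (adjusted p = 0.0491), with 1 of 9 genes called, against 1.37% of all genes (0.0903% higher). Neither call held without the untreated group with both sources. The untreated difference, then between Pigr-/- and Pigr+/- offspring of Pigr-/- dams alone, was 0.77 ± 0.21 (adjusted p = 0.447), and the averaged one 0.40 ± 0.12 (adjusted p = 0.829), while 0% and 0.00502% of all genes were called. The averaged call was also lost when any 1 of 13 arrays was left out. It held without replicate 2 of the both-source DSS group, replicate 2 of the untreated active-only group or replicate 1 of the untreated group with neither source.

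By size of difference Atoh1 was second, at 10.27 to 10.66 in the 4 untreated Pigr-/- arrays, against 9.77 to 10.34 in the 4 untreated Pigr+/- arrays (0.35 ± 0.12, adjusted p = 0.0843). Without the untreated group with both sources it was 0.62 ± 0.17 (adjusted p = 0.447), and 0.74 ± 0.21 with 1 more array left out (adjusted p = 1). Creb3l1 was close to it, at 10.61 to 10.997 in untreated Pigr-/- arrays, against 10.25 to 10.61 in untreated Pigr+/- arrays (0.34 ± 0.11, adjusted p = 0.0802). For both, 3 of the 4 Pigr-/- arrays were above every Pigr+/- array. The remaining differences in untreated mice ran from 0.02 for Tff3 to 0.19 for Agr2, and Muc2 was at 0.10 ± 0.08 (adjusted p = 0.407; 0.19 and 0.28 with those arrays left out, neither called). In untreated mice all 9 differences were positive, but 7 of 9 with quantile normalization, where Tff3 and Foxa3 turned negative. The median of the 9 was 0.13, against -0.01 over all genes, of which 48.2% were positive. After DSS, on other arrays, all 9 differences were also positive (8 with quantile normalization, where Muc2 turned negative), from 0.02 for Agr2 to 0.22 for Atoh1 and Spdef, with a median of 0.11, against 0.003 over all genes, of which 51.4% were positive. The 9 genes were read on the same arrays, so that their signs are not independent, and leaving out single arrays left 7 to 9 positive in either comparison. All 9 untreated differences also stayed positive without the untreated group with both sources (median 0.19) and with 1 more array left out (median 0.30).

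**Figure D4:**
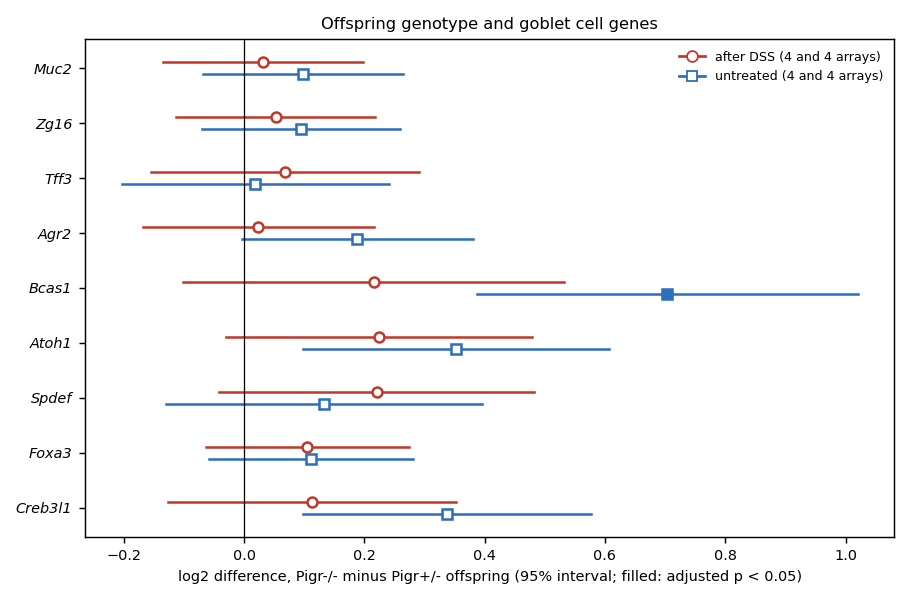
Log2 difference Pigr-/- minus Pigr+/- offspring for the 9 goblet cell genes (x axis), after DSS in red and in untreated mice in blue (4 and 4 arrays each), with 95% intervals as lines and filled symbols where the adjusted p was under 0.05. All points lie right of 0 (with quantile normalization Tff3 and Foxa3 untreated and Muc2 after DSS do not), and Bcas1 in untreated mice, at 0.70, is the filled one.

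Other genes were read in the same comparison of untreated mice. There 7.49% of all genes were called and 1.57% were called higher, or 0% called without the untreated group with both sources. Retnlb (1.08 ± 0.17, adjusted p = 0.00258) and Muc1 (0.36 ± 0.08, adjusted p = 0.015) were higher in Pigr-/- offspring and were the ones called in the 4 lists, and neither was called without the untreated group with both sources (0.51 with adjusted p = 0.447, and 0.20 with adjusted p = 0.459). The 38 folding, glycosylation and release genes had no call, with or without that group. Their median was 0.13, with per-array means of 9.41 to 9.54 in untreated Pigr-/- arrays, against 9.25 to 9.38 in untreated Pigr+/- arrays. These did not overlap, nor did the means of the crypt stem cell and neutrophil marker lists. The means of the goblet list (11.38 to 11.49, against 11.09 to 11.26) did not overlap either. That list is the 9 genes and Clca1, so its means repeat their values and are not a separate result. The untreated Pigr+/- arrays include the 2 of the group that stood apart, and the median of the 38 without it was not computed. Enteroendocrine markers were higher in 1 of 10 (Gcg, 0.43 ± 0.12, adjusted p = 0.0468; 0 without that group), with a median of 0.22 and per-array means of 8.30 to 8.40 in untreated Pigr-/- arrays, against 7.90 to 8.30 in untreated Pigr+/- arrays. Absorptive colonocyte markers were higher in 1 of 10 (Tmigd1), with a median of 0.11, and Paneth cell markers in 1 of 6 (Pla2g2a), while macrophage and monocyte markers were lower in 1 of 12 (Adgre1), each 0 without that group. These 4 genes were named after their values were seen. Crypt stem cell markers were higher in 3 and lower in 1 of 8 (0 without that group), with per-array means of 8.05 to 8.18 in untreated Pigr-/- arrays, against 7.82 to 7.99 in untreated Pigr+/- arrays. B and plasma cell markers were lower in 2 of 8 (0 without that group), at 6.06 to 6.24 in untreated Pigr-/- arrays, against 6.22 to 6.61 in untreated Pigr+/- arrays. Neutrophil markers were at 5.90 to 6.03 in untreated Pigr-/- arrays, against 6.05 to 6.35 in untreated Pigr+/- arrays, with 0 of 12 called. The part of these cells, and of the arrays that stood apart, in the Bcas1 result was not tested beyond the values without that group.

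Loss of passive SIgA (offspring of Pigr-/- dams against offspring of Pigr+/- dams) changed none of the 9 goblet cell genes past the threshold by limma. Averaged over all mice, 0 of 9 were called (0.963% of all genes), with differences from -0.16 for Atoh1 (± 0.08, adjusted p = 0.373) to 0.10 for Bcas1, and 0 had an unadjusted p under 0.05 (15.4% of all genes). In untreated mice 0 of 9 were called (2.58% of all genes), with 1 at an unadjusted p under 0.05 (19.9% of all genes). That gene was Creb3l1, at 10.25 to 10.70 in offspring of Pigr-/- dams, against 10.53 to 10.997 in offspring of Pigr+/- dams (-0.25 ± 0.11, adjusted p = 0.231). After DSS 0 of 9 were called (0% of all genes), again with 1 at an unadjusted p under 0.05 (3.95% of all genes). That gene was Spdef, at 9.29 to 9.59 in offspring of Pigr-/- dams, against 9.53 to 9.998 in offspring of Pigr+/- dams (-0.27 ± 0.12, adjusted p = 1). Muc2 differed by -0.08 ± 0.05 on average, with overlapping arrays.

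Among themselves the 9 genes varied to different degrees over the 8 groups. The range of group means was 0.9998 for Atoh1, 0.90 for Bcas1, 0.59 for Creb3l1, 0.52 for Tff3, 0.49 for Spdef, 0.35 for Agr2, 0.27 for Zg16, 0.23 for Muc2 and 0.21 for Foxa3. Residual standard deviations between the pools of a group ran from 0.08 for Zg16 to 0.24 for Bcas1, so that Bcas1 was also the least repeatable, with a gap of 0.59 between its arrays in the both-source DSS group. Atoh1 was highest in untreated mice with neither source (10.52 ± 0.20, SD, n = 2) and lowest in active-only DSS mice (9.52 ± 0.28). Its 3 highest groups were all untreated, each overlapping the next in order, and none of them overlapped the group that followed, which was DSS mice with neither source (10.06 ± 0.12). Its lowest group did not overlap the next, which was the untreated active-only group (9.90 ± 0.18). Bcas1 was highest in untreated mice with neither source (9.23 ± 0.31) and in untreated passive-only mice (8.98 ± 0.09), which overlapped each other and not the third group, and lowest in untreated mice with both sources (8.33 ± 0.11). Creb3l1 was highest in untreated passive-only mice (10.84 ± 0.22) and lowest in passive-only DSS mice (10.25 ± 0.33), the extremes being the same SIgA group.

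For the 3 genes of widest range, the genes whose 8 group means lay nearest, each centred on its own mean, were sought by root mean square difference. Nearest to Atoh1 were Hpd (0.0747), St6gal1 (0.102) and Armh4 (0.124), which also had their lowest group mean in active-only DSS mice. Nearest to Bcas1 were Pisd-ps2 (0.116), E2f3 (0.12) and Eola1 (0.128), all highest in untreated mice with neither source. Nearest to Creb3l1 were Zfp266 (0.0692), Rab3d (0.0728) and Chd6 (0.0755). Each likeness rests on 8 group means, and the nearest of 19938 genes will be close in any case.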

How the data were processed

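Each array carried the RNA of epithelial cells isolated from the colons of 3 mice, and each of the 8 groups had 2 arrays. Per the labels' protocols, RNA had to reach an integrity number of 8.5. The authors deposited log2 intensities of Affymetrix whole-transcript arrays, which the submitters' processing notes say were made with RMA, its version being not given in the sources used here. RMA quantile-normalizes the arrays, so a shift shared by most genes is not visible. The deposited table held 35557 probe sets running from 1.857 to 14.938, with array medians of 6.678 to 6.825. Raw intensities were not analysed here, and the labels name no hybridisation batch.

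Probe sets that named 1 gene in the platform annotation were kept (21789, against 1621 with several genes and 12147 with none). The probe set of highest mean stood for each of 999 genes with more than 1, which left 19938 genes. Coordinates and promoter sequences are RefSeq's, of GRCm38.p6.

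A mean per group was fitted to all genes and all 16 arrays with limma 3.58.1 in R 4.3.3 (8 residual and 5.03 prior degrees of freedom), without a replicate block, with two-sided tests and Benjamini-Hochberg adjustment over the 19938 genes, and genes with an adjusted p under 0.05 were called. There were 13 contrasts, DSS minus untreated or without minus with a SIgA source. The fit was tested on simulated data. The number of arrays limits the precision.

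The 9 genes, the 4 lists of other genes by function and the 14 marker lists were chosen with earlier results of these data known. All 9 genes were named, and of each of the 4 lists up to 4 genes with the smallest p for the averaged DSS effect. Retnlb and Muc1 were named in the comparison of untreated offspring because no other gene of the lists was called. The genes of nearest pattern leave aside predicted, Riken, small RNA and chemosensory receptor genes. Alternatives were a trended prior variance, array weights, a replicate block, median centring, quantile normalization, dropping the 30% of genes with the lowest mean, testing all probe sets, the compared arrays alone, an adjusted p under 0.1, leaving out each array, the untreated group with both SIgA sources, or that group and 1 more array. A group left with a lone array was assumed to vary as the others do. Where a whole group was left out, pairs of groups that needed it were dropped, and averages ran over the remaining pairs. Figures were drawn with matplotlib 3.10.9 in Python 3.11.15.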

Additional observations from a re-analysis of the deposited data

Results flagged for a closer look

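The DSS arrays of Spdef, the factor of goblet cell maturation, lay above the untreated ones in 1 SIgA group and below them in another, and neither difference passed the test. In passive-only mice both DSS arrays (9.72 and 9.998) were above both untreated arrays (9.70 and 9.64), a difference of 0.19 ± 0.17 (adjusted p = 0.801 by limma). In mice with neither source both DSS arrays (9.54 and 9.59) were below both untreated arrays (9.68 and 9.83), a difference of -0.19 ± 0.17 (adjusted p = 0.942). Of all genes, 20.7% had arrays apart upwards in 1 or more SIgA groups and downwards in 1 or more. The gap between the groups was 0.379 on the log2 scale, and the difference between these groups was not tested by itself. The nearest test, the interaction of DSS with passive SIgA over all groups, gave -0.30 ± 0.17 (adjusted p = 0.677 by limma), and the widest gap between replicate arrays of Spdef was 0.56.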

How the results depend on the processing

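The averaged DSS count of 2 goblet cell genes stood under all alternatives (2 or 3 when 1 array was left out) except leaving out the untreated group with both SIgA sources and 1 more array, which gave 1. Tff3 passed in all 26 (0.34 to 0.43, largest adjusted p = 0.022), and Atoh1 in 25 of 26. In passive-only mice the DSS count of 0 became 2 with a trended prior variance, 2 with array weights (Creb3l1 and Tff3 in both) and 1 at an adjusted p under 0.1, and was 0 to 1 when 1 array was left out (1 without replicate 2 of the passive-only DSS group). Averaged over all mice, the count of 1 for loss of active SIgA (Bcas1) became 0 with arrays centred on their median (adjusted p = 0.0603), quantile normalization (0.0746), the dimmest 30% of genes left out (0.215), all probe sets (0.0501), the untreated group with both sources left out (0.829) or 1 more array as well (0.999), and was 0 to 1 when 1 array was left out. In untreated mice the count of 1 became 0 without the dimmest 30% of genes (adjusted p = 0.0783), without that group (0.447) and with 1 more array left out (1), 3 at an adjusted p under 0.1 (Bcas1, Atoh1 and Creb3l1), and 0 to 1 when 1 array was left out. The arrays whose removal ended it were replicate 2 of the untreated both-source, passive-only and neither-source groups and replicate 1 of the untreated active-only group. Bcas1 kept its sign under all these settings. The cause of these changes was not tested, apart from fewer arrays or other genes tested where the setting itself removes or adds them. The other counts stayed at 0. Differences near 0 that had not passed changed sign in places. For DSS, Spdef was 0.0291 without that group and 1 more array, and -0.113 to 0.0283 when 1 array was left out. For loss of active SIgA in untreated mice, Tff3 was -0.0456 and Foxa3 -0.0212 with quantile normalization, and when 1 array was left out Tff3 ran from -0.0523 to 0.0895 and Spdef from -0.00818 to 0.274. Replicate numbers are not stated to pair arrays. Over 28 pairs of groups, the deviations of same-numbered arrays correlated at -0.301 to 0.666 (median 0.0758), with 14 over 0.1 and 9 under -0.1. Whether some of these arrays pair is not settled by these values. With a replicate block the counts were 2 for the averaged DSS effect, 1 for both active SIgA effects and 0 for the rest, so that it moved no count. Centring and quantile normalization moved the median of all genes by -0.1 to 0.0963 over the 13 comparisons. The DSS effect with both sources could not be computed without its untreated group, and the fit of the compared arrays alone does not apply to averages and interactions.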
